A study of Mus musculus with 17 samples.

Results

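The JUN family consists of the genes Jun, Junb and Jund, 3 of the 24453 gene models in the deposited expression table, taken by their gene symbols. All 3 were measured in 13 polyA RNA-seq libraries of mouse macrophages and passed the filter on low values in every comparison. Immortalised bone marrow-derived macrophages (iBMDMs) carried BRAF V600E and Myc from a retrovirus, had the strain label C57Bl/6EiJ and passage 3 to 8, and received vehicle (PBS). Their groups were Scramble, the control whose titles name zsGreen, and the knockouts Atf3KO, JunKO and JunDKO, with 2 libraries each. Per the study's methods, cells carrying Cas9 received a lentivirus with a pair of guides per target and were sorted on its blue fluorescent marker, so that each group is an edited population, not stated to be 1 clone. Thioglycollate-elicited macrophages (TGEMs) are primary cells taken from the peritoneum 3 days after injection, from mice aged 8 weeks by the study's methods. They were wild type and received vehicle (1 C57Bl/6EiJ and 1 Balb/cJ library) or 1 h of KLA (1 C57Bl/6EiJ and 2 Balb/cJ libraries), which is Kdo2 lipid A and activates TLR4, the receptor for bacterial endotoxin. The labels do not say whether libraries of a group came from separate cultures or mice, so p-values measure the spread between these libraries, which may be technical. The other 4 of the 17 samples, from GRO-seq, were not analysed here.

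AP-1 is a dimer of basic leucine zipper proteins that binds short palindromic sites in promoters and enhancers. JUN proteins can pair with one another and with FOS, ATF, BATF and JDP2 proteins. The makeup of the pool of JUN proteins thus bears on which dimers a cell can form. JUN is the classical target of the JNK kinases, JUNB is an immediate-early gene product in many cells exposed to inflammatory signals, and JUND is commonly present in resting cells.

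Some libraries stood apart before any result on the JUN family. Depth spanned 1553296 to 18444441 reads, with at most 1929988 in each Scramble and JunKO library and in 1 JunDKO library, and Jund in Scramble rested on 51 and 41 reads. In the Atf3KO libraries 10425 and 10631 gene models had reads, against 11884 to 12533 in the other iBMDM libraries, and 1 of them (replicate 2) carried a later title date than all others from iBMDMs. Every library is labelled male, but the TGEM libraries held 863 to 8676 reads of Xist and 0 reads of Ddx3y and Kdm5d, whereas the iBMDM libraries held 0 to 3 reads of Xist and at least 130 of Ddx3y. All 10 macrophage markers averaged at least 1 RPKM (reads per kilobase of exon, scaled to library depth) in every group, with summed levels of 17785 to 33991 RPKM in iBMDMs and 9975 to 12184 RPKM in TGEMs. Exonic reads do not check a knockout label, because a gene with a small edit may keep its transcript: Atf3 was at 154 and 169 RPKM in Atf3KO and at 80.7 and 77.4 in Scramble. The groups are therefore called by their labels. The paper checked the knockouts at the protein level by western blot. It also reports a substantial loss of Jun ChIP-seq binding in Jun knockout iBMDMs.

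The 3 genes have a single exon each and share only short runs of sequence. On GRCm38 (the mm10 build) Jun lies on the minus strand of chromosome 4, from 95049036 to 95052222, with its coding sequence from 95050267 to 95051271. Junb lies on the minus strand of chromosome 8, from 84976909 to 84978748, with its coding sequence from 84977395 to 84978429. Jund lies on the plus strand of the same chromosome, from 70697739 to 70700616, with its coding sequence from 70699058 to 70700083. No exon of another RefSeq gene overlapped any of them. Their exons are rich in G and C, with 55.6% for Jun, 62.4% for Junb and 62.7% for Jund, the 80.8th, 97.9th and 98.1th percentile of the gene models, whose median was 49.2%. The longest identical run between transcripts was 20 bases for Jun and Jund and 14 bases for each of the other pairs, all inside coding sequence. These runs are shown because a read longer than them cannot match both transcripts of a pair exactly on the coding strand. Each is printed 5′ to 3′ on the coding strand with 20 bases on either side, and the capitals mark the identical run:
Jun (against Jund), chr4:95050542-95050601: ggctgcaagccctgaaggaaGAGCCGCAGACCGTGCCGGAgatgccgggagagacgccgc
Jund (against Jun), chr8:70699743-70699802: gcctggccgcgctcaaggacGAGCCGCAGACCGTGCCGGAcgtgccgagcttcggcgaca
Jun (against Junb), chr4:95050923-95050976: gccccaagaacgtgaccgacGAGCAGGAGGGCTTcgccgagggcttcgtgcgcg
Junb (against Jun), chr8:84978015-84978068: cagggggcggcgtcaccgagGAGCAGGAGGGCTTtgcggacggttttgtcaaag
Junb (against Jund), chr8:84977445-84977498: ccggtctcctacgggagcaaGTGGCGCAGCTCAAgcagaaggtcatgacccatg
Jund (against Junb), chr8:70699980-70700033: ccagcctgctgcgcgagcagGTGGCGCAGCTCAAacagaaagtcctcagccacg

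The 250 bases before each start are shown because Junb and Jund below changed in different comparisons. They are from RefSeq on GRCm38.p6, written 5′ to 3′ on the strand of the gene, and the capitals mark a variant AP-1 site:
Jun, chr4:95052223-95052472: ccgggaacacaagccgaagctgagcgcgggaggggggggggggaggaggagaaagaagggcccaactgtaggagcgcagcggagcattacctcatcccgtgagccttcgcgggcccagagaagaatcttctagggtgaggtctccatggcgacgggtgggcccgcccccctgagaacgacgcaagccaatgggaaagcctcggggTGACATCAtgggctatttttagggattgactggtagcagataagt
Junb, chr8:84978749-84978998: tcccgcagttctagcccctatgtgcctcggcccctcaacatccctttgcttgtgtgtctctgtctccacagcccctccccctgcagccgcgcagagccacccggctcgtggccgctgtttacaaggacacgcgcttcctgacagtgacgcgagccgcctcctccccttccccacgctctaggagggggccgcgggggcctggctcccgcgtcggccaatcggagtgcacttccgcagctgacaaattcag
Jund, chr8:70697489-70697738: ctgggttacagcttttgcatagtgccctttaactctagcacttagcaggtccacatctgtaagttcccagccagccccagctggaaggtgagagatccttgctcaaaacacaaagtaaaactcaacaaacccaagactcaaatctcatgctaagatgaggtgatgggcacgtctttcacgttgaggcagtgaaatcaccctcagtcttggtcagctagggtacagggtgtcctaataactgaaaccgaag
The capitals in Jun are TGACATCA, 45 to 38 bases before the start, an element that 2.93% of 32851 promoters of this length held on either strand. Searched on both strands in the same way, TGANTCA (the consensus AP-1 site, in 6.75% of promoters), TGACGTCA (the cyclic AMP response element, 1.55%), TATAAA (12.4%), the CArG box bound by SRF (1.47%) and a 10-letter kappaB site (7.25%) were in none of the 3 windows. No match says only that these letters are not in these bases. The Jund window held 47.6% G and C, against 61.2% for Jun, 66.4% for Junb and a median of 52.4% over all promoters.

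In resting iBMDMs Junb was the most abundant family transcript, and in resting TGEMs it was not. Scramble replicates 1 and 2 measured 55.0 and 39.1 RPKM of Junb, 17.6 and 18.5 of Jun and 9.19 and 8.33 of Jund. The order Junb, Jun, Jund held in both, with no overlap between genes. The C57Bl/6EiJ TGEM vehicle library had 108 RPKM of Jund, 85.8 of Junb and 71.1 of Jun, and the Balb/cJ vehicle library had 100.0 of Jun, 65.0 of Jund and 33.2 of Junb. The vehicle libraries thus differed in which gene led, and 1 library per strain cannot tell strain from the spread between libraries. RPKM is a level per length, so these comparisons between genes do not depend on transcript size.

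**Figure D1:**
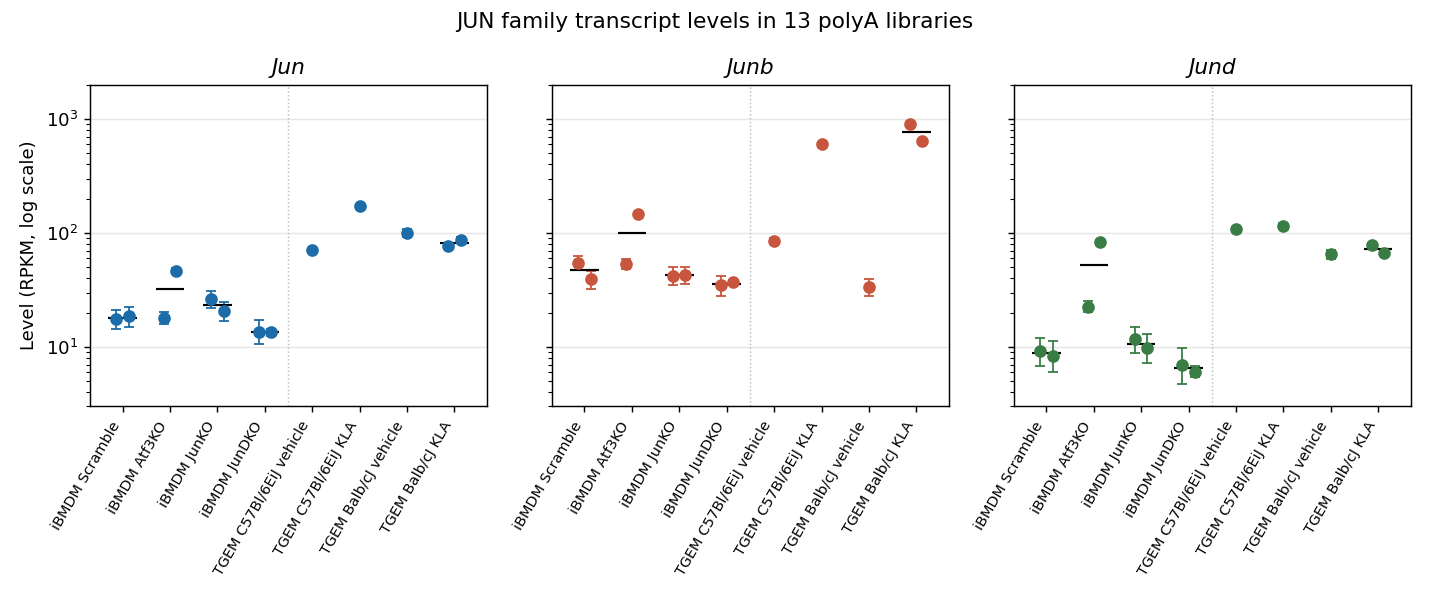
Level of Jun, Junb and Jund (RPKM, log scale) in each of the 13 libraries, by group. Points are libraries, black lines are means of groups with 2 libraries, and error bars are exact 95% Poisson intervals of the reads, which cover counting error only; the TGEM KLA libraries sit at 606 to 909 RPKM for Junb, above all others.

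Across groups the 3 genes did not follow the same order. For Jun the highest level was 171 RPKM in the C57Bl/6EiJ KLA library, followed by the Balb/cJ vehicle library (100.0), Balb/cJ KLA (82.2 ± 7.42, SD, n = 2) and the C57Bl/6EiJ vehicle library (71.1). All 8 iBMDM libraries lay below these, between 13.5 and 46.2 RPKM, in the order Atf3KO (32.1 ± 20.0), JunKO (23.3 ± 3.99), Scramble (18.1 ± 0.68) and JunDKO (13.5 ± 0.06, SD, n = 2 each). Only Atf3KO and JunKO overlapped among neighbours in this order. For Jund the 4 TGEM groups again came first, from 115 RPKM (C57Bl/6EiJ KLA) to 65.0 (Balb/cJ vehicle), but the Atf3KO libraries at 22.6 and 83.0 RPKM spread across that boundary. The other 6 iBMDM libraries held 6.07 to 11.6 RPKM of Jund. For Junb the KLA libraries came first (779 ± 183 RPKM in Balb/cJ, SD, n = 2, and 606 in C57Bl/6EiJ), and the Balb/cJ vehicle library came last at 33.2, below every iBMDM library (34.7 to 148).

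The comparison of resting TGEMs with Scramble iBMDMs gives the levels in primary against immortalised cells of the same strain label. Jun and Jund were higher in TGEMs and Junb was not called. Tests here and below used limma-trend on log2(RPKM + 1), and calls needed an adjusted p under 0.05, a change of at least 2-fold and a group mean of 16 RPKM or more. Of 10929 genes tested, 21.1% were called, 7.89% higher in TGEMs, and the median log2 fold change was -0.28. Jund was at 108 RPKM in the 1 C57Bl/6EiJ vehicle library and at 8.76 ± 0.61 RPKM in Scramble (SD, n = 2), with a log2 fold change by limma-trend of 3.46 ± 0.48 (SE, adjusted p = 2.52e-04). The fit held all 13 libraries with a strain term shared by both treatments, so its fold changes are not the plain ratios of these levels. For Jun the levels were 71.1 and 18.1 ± 0.68 RPKM and the log2 fold change was 2.36 ± 0.47 (SE, limma-trend adjusted p = 0.00216). Junb measured 85.8 and 47.1 ± 11.2 RPKM, with a log2 fold change of 0.39 (95% interval -0.76 to 1.54, limma-trend adjusted p = 0.565). The calls of Jun and Jund held in each of 14 alternatives. The C57Bl/6EiJ vehicle arm is 1 library with no spread of its own, so its error was taken from the remaining arms. Fitted on the libraries of these 2 groups alone, the log2 fold changes were 1.92 for Jun, 0.87 for Junb and 3.48 for Jund, with the error from the arm that has 2 libraries. Without the C57Bl/6EiJ vehicle library, where the value rests on the Balb/cJ vehicle library and the fitted strain term, Jun changed by 3.46 and Jund by 3.41, and Junb turned to -0.81. Removing each library's trend with GC content turned Junb to -0.78 and lowered Jund to 2.27.

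Cell source cannot be told apart from sex, culture and date in that comparison, and markers of other cells moved with it. Across genes, which are not independent replicates, GC-rich gene models had higher fold changes (Spearman's rho = 0.41). The 6 fibroblast and mesothelial markers summed to 31.8 to 40.6 RPKM in vehicle TGEMs and to 0 to 0.106 in Scramble, where Col1a1, Pdgfra, Msln, Upk3b and Krt19 were at 0. The 5 B cell markers summed to 11.2 to 14.5 RPKM in vehicle TGEMs, with 4 of 5 averaging at least 1 RPKM, and to 0 to 0.443 in Scramble. T and NK cell markers stayed at or below 1.45 RPKM, dendritic cell markers at or below 1.61 and mast cell and eosinophil markers at or below 5.74 in both groups. Neutrophil markers summed to 9.51 to 13.2 RPKM in TGEMs and to 33.2 to 34.8 in Scramble, with S100a9, Ly6g, Camp and Retnlg at 0 in both. The part of other cells in the levels of Jun and Jund was not tested. In bulk samples fewer cells of a type and less RNA per cell cannot be told apart.

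KLA for 1 h raised Junb in TGEMs of both strains, while Jun and Jund were not called. Junb went from 85.8 RPKM in the C57Bl/6EiJ vehicle library to 606 with KLA, and from 33.2 in the Balb/cJ vehicle library to 909 and 649.6 with KLA. All 3 KLA libraries exceeded both vehicle libraries, as 5.74% of 10357 tested genes did. Junb became the 44th, 58th and 64th most abundant of all gene models, from 597th and 1510th with vehicle. Its log2 fold change, with strain as a covariate, was 3.77 ± 0.41 (SE, 5 libraries, limma-trend adjusted p = 0.00521), in a comparison with 1.13% of genes called, 1% of genes higher, and a median of -0.15. The counting error was small against this change, with 143 reads behind the lowest level (exact 95% Poisson interval 28.0 to 39.1 RPKM) and 28793 behind the highest.

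Jun and Jund gave no call with KLA. Jun measured 71.1 and 100.0 RPKM with vehicle and 171, 76.9 and 87.4 with KLA, and its groups overlapped (log2 fold change 0.38, 95% interval -0.51 to 1.27, limma-trend adjusted p = 0.663). Jund measured 108 and 65.0 RPKM with vehicle and 115, 78.9 and 67.2 with KLA, with means of 86.3 ± 30.1 (SD, n = 2) and 86.9 ± 24.7 (SD, n = 3). Its log2 fold change was 0.13 (95% interval -0.47 to 0.73, limma-trend adjusted p = 0.832), so that a 2-fold change lay outside the interval.

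The call of Junb depended on the Balb/cJ vehicle library. Between libraries of 1 title date Junb was 7.07-fold higher with KLA in C57Bl/6EiJ and 27.3-fold higher in Balb/cJ, and it was 19.5-fold higher in the Balb/cJ KLA library of another date. Without the Balb/cJ vehicle library the log2 fold change was 2.81 and the call was lost (limma-trend adjusted p = 0.194), and it was lost with title date in place of strain (3.77, adjusted p = 0.0590) and with no filter on low values (3.77, adjusted p = 0.0735), within a range of 9.76e-05 to 0.194 over 17 alternatives. Markers of other cells overlapped between treatments, with B cell markers at 11.7 to 25.2 RPKM and fibroblast and mesothelial markers at 20.3 to 36.7 RPKM in the KLA libraries.

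Whether the strains differed in these levels or in their change with KLA was tested as well. No title date held both strains, so strain cannot be told apart from date. Over both treatments none of the genes was called between Balb/cJ and C57Bl/6EiJ, where 1.16% of genes were. Jund was lower in both treatments in Balb/cJ, at 65.0 against 108 RPKM with vehicle and at 78.9 and 67.2 against 115 with KLA. Its groups did not overlap, and 26.1% of all tested genes were lower without overlap. Its log2 fold change was -0.68 ± 0.26 (SE, limma-trend adjusted p = 0.190), or -0.09 after GC correction. Fold changes fell with GC content in this comparison (rho = -0.45 across genes). Jun (-0.39, limma-trend adjusted p = 0.578) and Junb (-0.38, limma-trend adjusted p = 0.624) overlapped between strains. The change with KLA differed between strains by -1.54 ± 0.54 for Jun, 1.68 ± 0.62 for Junb and 0.07 ± 0.54 for Jund on the log2 scale (Balb/cJ minus C57Bl/6EiJ, SE). None passed (limma-trend adjusted p = 0.603, 0.608 and 0.985), in a fit that left 1 residual degree of freedom and called 0 genes by limma-trend, with 835 of 10357 at an unadjusted p under 0.05 and also 0 called by limma-voom.

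In the libraries labelled Atf3KO Jund was higher than in Scramble, and the size of the difference rested on 1 library. ATF3 is a stress-induced partner of JUN proteins that often represses inflammatory genes. Jund measured 22.6 and 83.0 RPKM in these libraries and 9.19 and 8.33 in Scramble, without overlap (37.4% of tested genes were higher without overlap). Its log2 fold change by limma-trend was 2.19 ± 0.49 (SE, 2 libraries against 2, adjusted p = 0.0100), where 12.5% of 10691 genes were called, 7.84% as higher. Without Atf3KO replicate 2 it was 1.28 and without replicate 1 it was 3.11. Both were called, but each tests 1 Atf3KO library, whose spread is assumed equal to that of the remaining groups, whereas leaving out Scramble replicate 2 ended the call (2.13, limma-trend adjusted p = 0.0684). Over 18 alternatives the adjusted p spanned 0.00151 to 0.0684, with 17 calls.

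Jun and Junb were far apart between the same libraries. Jun measured 17.9 and 46.2 RPKM in those labelled Atf3KO, against 17.6 and 18.5 in Scramble, and Junb measured 53.6 and 148 against 55.0 and 39.1. In replicate 1 both genes thus lay inside the range of Scramble, and in replicate 2 above it. Neither was called (Jun 0.65 ± 0.38, limma-trend adjusted p = 0.192, and Junb 0.93 ± 0.41, adjusted p = 0.0994, SE). Leaving out replicate 1 of Atf3KO gave 1.31 for Jun and 1.65 for Junb, and leaving out replicate 2 gave -0.01 and 0.20. These values also rest on 1 Atf3KO library each, with the spread taken from the other groups. Replicate 2 over replicate 1 was 2.58-fold for Jun, 2.75-fold for Junb and 3.67-fold for Jund, which placed the members at the 97.7th, 98.4th and 99.5th percentile of 10691 genes in that difference. In the other iBMDM groups the same difference between replicates put the members between the 13.8th and 62.8th percentile. After GC correction Jund was still called (1.10 ± 0.28, SE, limma-trend adjusted p = 0.0163), Jun fell to 0.19 and Junb turned to -0.15. Fold changes of all genes rose with GC content here (rho = 0.50 across genes).

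None of the members was called in the libraries labelled JunKO, against 0.196% of all genes. The intervals below share their error with the Atf3KO libraries, whose replicates lay far apart. On the Scramble and JunKO libraries alone the SEs were 0.20 for Jun, 0.21 for Junb and 0.20 for Jund. Jun measured 26.2 and 20.5 RPKM, above both Scramble libraries (17.6 and 18.5), as were 19.1% of tested genes, with a log2 fold change of 0.34 (95% interval -0.52 to 1.21, limma-trend adjusted p = 0.912). The level of the targeted transcript was thus not lower than in Scramble. Jund at 11.6 and 9.74 RPKM lay above Scramble as well (0.26, interval -0.87 to 1.39, limma-trend adjusted p = 0.959), and Junb at 42.1 and 42.9 lay within the Scramble range (-0.12, interval -1.06 to 0.81, limma-trend adjusted p = 0.981).

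All 3 members lay below both Scramble libraries in those labelled JunDKO, and none was called. Over 20 alternatives their log2 fold changes spanned -0.68 to -0.32 for Jun, -0.66 to -0.12 for Junb and -0.67 to -0.26 for Jund. Jund, the targeted gene, measured 6.94 and 6.07 RPKM against 9.19 and 8.33 (-0.38, 95% interval -1.51 to 0.75, limma-trend adjusted p = 0.654). Jun measured 13.5 in both libraries against 17.6 and 18.5 (-0.39, interval -1.26 to 0.47, limma-trend adjusted p = 0.534). Junb measured 34.7 and 36.9 against 55.0 and 39.1 (-0.37, interval -1.30 to 0.57, limma-trend adjusted p = 0.599). In this comparison 4.97% of genes were called and 16.4% lay below Scramble without overlap, while the median of all genes was 0.23. The interval of each member includes a 2-fold lower level. This fit shares its error with the Atf3KO libraries, whose replicates lay far apart. Fitted on the Scramble and JunDKO libraries alone, the estimates were the same, with SEs of 0.16 for Jun, 0.20 for Junb and 0.19 for Jund. None was called there (limma-trend adjusted p = 0.154, 0.265 and 0.224). The 3 knockout groups share the Scramble libraries, so their values are given side by side and not compared by correlation.

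**Figure D2:**
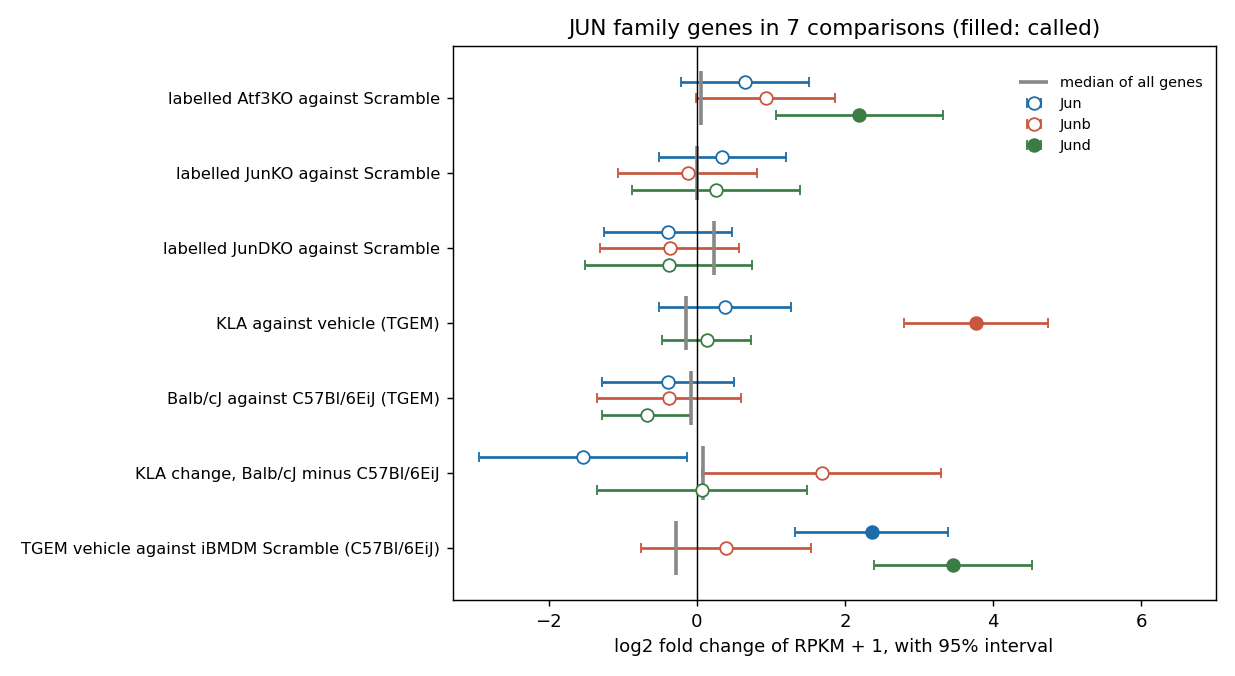
log2 fold change of RPKM + 1 for Jun, Junb and Jund in 7 comparisons, with 95% intervals from limma-trend; filled points were called and grey bars are the median of all tested genes. Filled points are Jund in the libraries labelled Atf3KO (2.19), Junb with KLA (3.77), and Jun (2.36) and Jund (3.46) in TGEMs against iBMDMs.

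The makeup of the JUN family transcripts differed between cells and treatments. These are shares of RNA, and protein was not measured here. For vehicle TGEMs the paper reports high Junb RNA but no nuclear JUNB protein by western blot. In Scramble Junb gave 67.3% and 59.3% of the summed RPKM of the family, Jun 21.5% and 28.1% and Jund 11.2% and 12.6%. Over all 8 iBMDM libraries Junb held 52.7% to 67.3% and Jund 10.8% to 30.0%, and the libraries labelled Atf3KO had the highest shares of Jund (24.0% and 30.0%). In vehicle TGEMs Junb held 32.5% (C57Bl/6EiJ) and 16.8% (Balb/cJ) of the summed RPKM, with Jund at 40.7% and 32.8%. With KLA Junb held 68.0% in C57Bl/6EiJ and 85.4% and 80.8% in Balb/cJ, and Jund 7.41% to 12.9%.

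**Figure D3:**
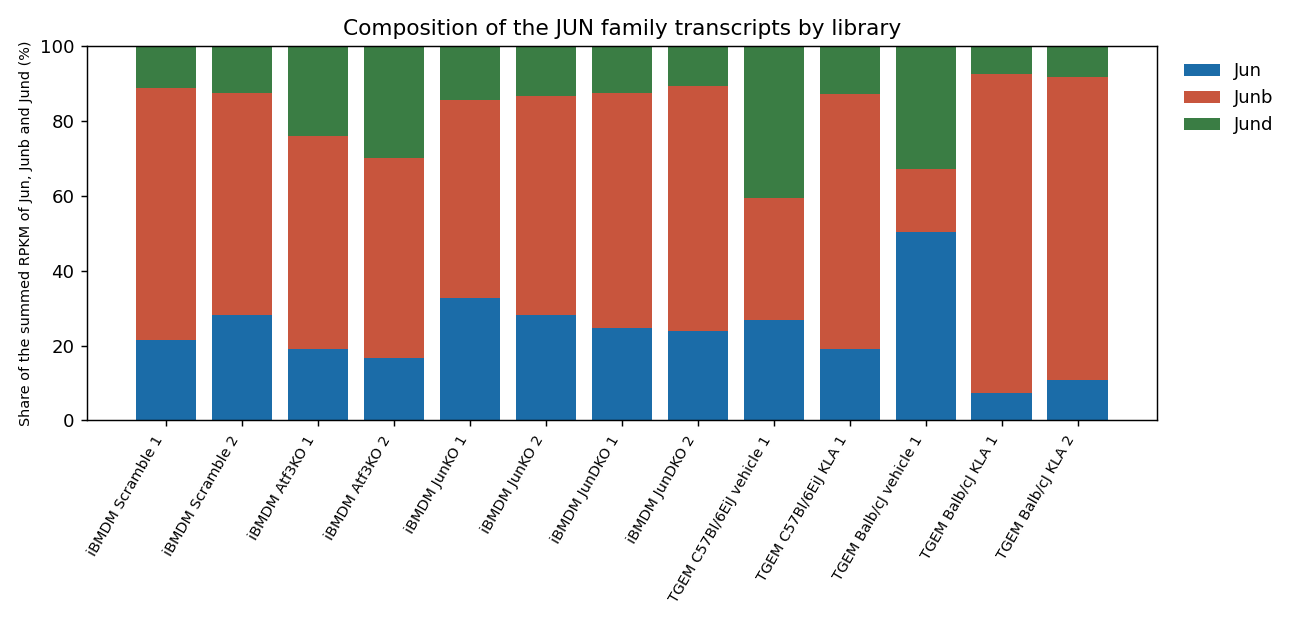
Share of Jun, Junb and Jund in the summed RPKM of the family (%, stacked to 100) for each library. Junb holds 52.7% to 67.3% in iBMDMs, 16.8% and 32.5% in vehicle TGEMs and 68.0% to 85.4% in KLA TGEMs.

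The JUN family gave more of the AP-1 transcripts after KLA, a rise carried mostly by Junb. Junb went from 85.8 and 33.2 RPKM to 606, 909 and 649.6, while Jun and Jund gave no call. The summed level of the family was 264 and 198 RPKM in the vehicle TGEMs and 892, 1065 and 804 in the KLA libraries. Of the summed RPKM of 15 AP-1 monomer genes (the 3 JUN genes with Fos, Fosb, Fosl1, Fosl2, Batf, Batf2, Batf3, Atf2, Atf3, Atf4, Atf7 and Jdp2) it held 35.0% and 30.2% with vehicle and 58.9%, 60.9% and 56.0% with KLA. In iBMDMs it held 17.3% to 43.9%, with the lowest shares in the libraries labelled JunDKO (17.3% and 18.4%) and the highest in replicate 2 of those labelled Atf3KO (replicate 1 had 22.2%). These shares are descriptions and were not tested.

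Ratios between paralogs cancel any factor that scales a whole library. The log2 ratio of Junb to Jund was 2.58 and 2.23 in Scramble, -0.33 and -0.97 in vehicle TGEMs (C57Bl/6EiJ and Balb/cJ) and 2.40, 3.53 and 3.27 in KLA TGEMs. With KLA the mean was 3.71 higher, or 13.1-fold, without overlap. The mean ratio of Junb to Jun was 3.42 higher (10.7-fold), again without overlap, and that of Jund to Jun differed by -0.29 with overlap. Without the Balb/cJ vehicle library the difference for Junb to Jun was 2.49, and without the C57Bl/6EiJ vehicle library it was 4.35, while that for Jund to Jun was -0.90 and 0.31. The exact two-sided permutation test gave p = 0.1 for the first 2 of these, the smallest it allows with 3 against 2 libraries, and p = 0.7 for Jund to Jun. The Benjamini-Hochberg adjusted values over 15 ratio tests were at least 0.556.

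Between vehicle TGEMs and Scramble the log2 ratio of Junb to Jund differed by -3.05 (0.12-fold), that of Junb to Jun by -2.02 and that of Jund to Jun by 1.03, each without overlap (exact permutation p = 0.333, the smallest with 2 against 2). Without the Balb/cJ vehicle library Junb to Jun differed by -1.09 and Jund to Jun by 1.64, and without the C57Bl/6EiJ vehicle library by -2.95 and 0.42, so the size of both rests on single libraries. In the libraries labelled Atf3KO the ratio of Jund to Jun was 0.34 and 0.84, against -0.94 and -1.15 in Scramble, a difference of 1.63 without overlap (exact permutation p = 0.333). Both Atf3KO libraries had more Jund than Jun, and the other 6 iBMDM libraries had less. After GC correction that difference was 0.98. The ratio of Junb to Jund was 1.24 and 0.83 there against 2.58 and 2.23, a difference of -1.37 without overlap (exact permutation p = 0.333). In the libraries labelled JunDKO the 3 ratios differed from Scramble by 0.06 or less in size, within the SD of either group. In those labelled JunKO Junb to Jun was 0.69 and 1.06 against 1.65 and 1.08 without overlap (difference -0.49, exact permutation p = 0.333). Junb to Jund was 1.86 and 2.14 there against 2.58 and 2.23, also without overlap (difference -0.41, exact permutation p = 0.333). Leaving out 1 library, Scramble replicate 1 or 2 giving the extremes, moved the first to -0.20 or -0.77 and the second to -0.23 or -0.58.

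**Figure D4:**
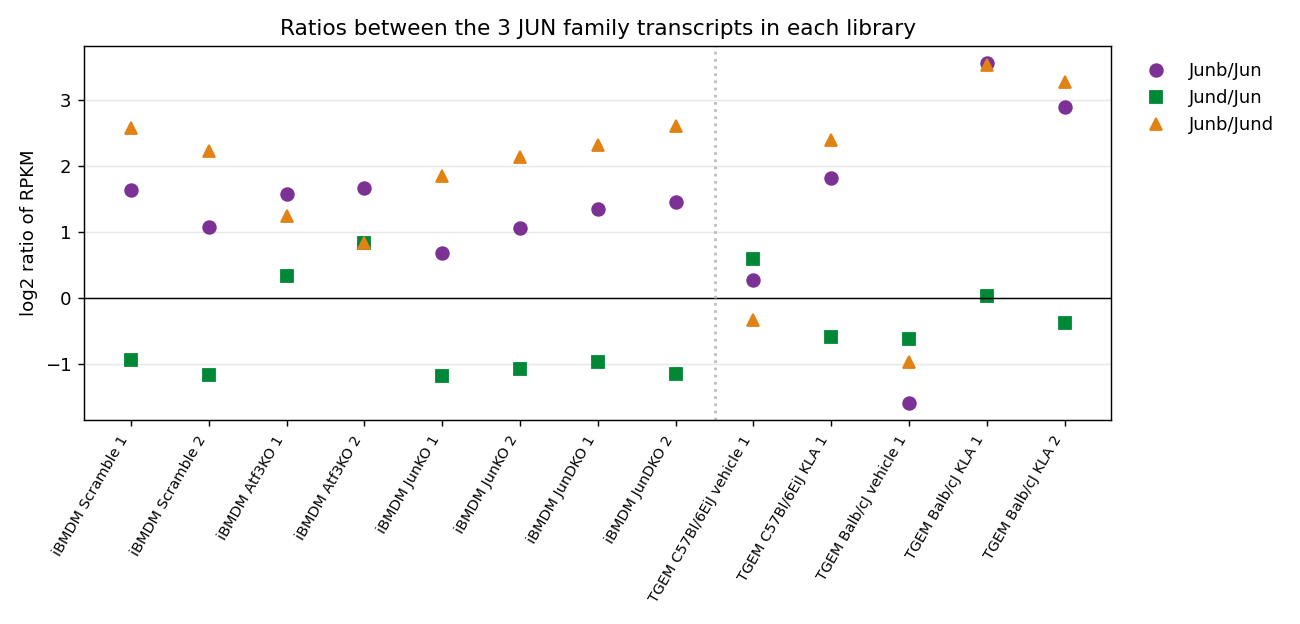
log2 ratio of RPKM between the 3 JUN family transcripts in each library, with 0 as equal levels and a dotted line between iBMDMs and TGEMs. Junb over Jund is below 0 in both vehicle TGEM libraries and above 2 in all KLA TGEM libraries; Jund over Jun is above 0 in both libraries labelled Atf3KO and below 0 in the other iBMDM libraries.

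Among the partners of the JUN proteins Fos was the only call with KLA. As 1.13% of all genes were called with KLA, 1% higher, the list counts are given beside these shares. Of 12 dimer partner genes 11 passed the filter on low values in TGEMs, with 1 called higher, 0 lower and a median log2 fold change of 0.16. Fos, the classical partner of JUN, measured 8.06 and 9.00 RPKM with vehicle and 152, 34.5 and 71.0 with KLA (3.08 ± 0.47, SE, limma-trend adjusted p = 0.0234), a call kept in 9 of 17 alternatives (up to 0.166). Fosl2 and Atf3 are named after their values were seen. Fosl2 had 16.1 and 5.47 RPKM with vehicle and 32.7, 42.5 and 50.6 with KLA but was not called (2.06, limma-trend adjusted p = 0.0852). Atf3 was high with both treatments, at 232 to 292 RPKM (0.18, limma-trend adjusted p = 0.769).

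Dusp1, Trib1 and several AP-1 targets and immediate-early genes were called higher with KLA. Of 14 tested genes of the JNK pathway 1 was called higher and 0 lower (median -0.00175): Dusp1, a phosphatase that switches off MAP kinases, with means of 35.7 and 943 RPKM (5.08 ± 0.34, SE, limma-trend adjusted p = 6.22e-04). Of 9 tested genes for JUN protein turnover and co-factors 1 was called higher (median -0.06): Trib1, an adaptor of the ubiquitin ligase COP1 (2.77 ± 0.34, SE, limma-trend adjusted p = 0.00888), lost in 5 of 17 alternatives. Of 20 tested textbook AP-1 targets 7 were called higher and 0 lower, with a median of 1.19, among them Tnf (7.42) and Il1b (7.70), which encode inflammatory cytokines. All genes had 1% called higher and a median of -0.15. Other immediate-early genes were called higher in 12 of 14, with 0 lower and a median of 3.52, among them Egr1 (5.76), a zinc finger factor, Nfkbia (5.64), the inhibitor of NF-kappaB, and Zfp36 (4.37), an mRNA decay factor. Tnf, Il1b, Egr1 and Nfkbia were called in 17 of 17 alternatives and Dusp1 and Zfp36 in 16. Other calls were less stable, with Klf6 called in 7, Plau in 9, Klf2 in 11 and Cdkn1a, Ptgs2 and Ier2 in 12. Of the 7 targets and 12 immediate-early genes called, 2 and 3 were still called without the Balb/cJ vehicle library, 5 and 7 without the C57Bl/6EiJ vehicle library, and 6 and 7 without the C57Bl/6EiJ KLA library.

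In the edited iBMDMs 7 of the 12 partner genes were tested. In the libraries labelled Atf3KO 2 were called higher, as were 7.84% of all genes, and 0 lower (median 0.58): Atf3 itself (1.02, limma-trend adjusted p = 0.00237, called in 10 of 18 alternatives) and Jdp2, which encodes a repressive partner of JUN proteins (1.09, limma-trend adjusted p = 0.00344, called in 12 of 18). In those labelled JunKO 0 were called in either direction (median 0.05). In those labelled JunDKO Fos was called higher, as were 2.69% of all genes, at 17.0 and 18.3 RPKM against 5.46 and 5.60 in Scramble (1.51 ± 0.39, SE, limma-trend adjusted p = 0.0423). It was not called whenever 1 library was left out (adjusted p up to 0.214), and was called in 11 of 20 alternatives.

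Textbook AP-1 targets were called in all 3 knockout groups, with Mmp12 lower in each. In the libraries labelled Atf3KO 5 of 15 tested targets were called lower, against 4.69% of all genes, and 0 higher, with a median of -1.02 against 0.05 over all genes: Mmp12 (-4.06), a macrophage elastase, Tnf (-2.03), Vegfa (-1.72), Plaur (-1.46) and Cd44 (-1.02, called in 12 of 18 alternatives). In those labelled JunDKO 7 were lower, against 2.27% of all genes, and 1 higher, with a median of -1.26 against 0.23: Mmp12 (-4.90), Spp1 (-1.90), Hmox1 (-1.67), Cdkn1a (-1.26), Plaur (-1.26), Vegfa (-1.23) and Ccl2 (-1.04) were lower, and Plau (3.55), the urokinase plasminogen activator, was higher. Leaving out 1 library at a time, Plaur was called in 0 of 4 fits (adjusted p up to 0.131) and Vegfa and Ccl2 in 1 of 4, while Mmp12, Hmox1, Spp1 and Plau were called in 4 of 4. Spp1 lost its call with quantile normalization (-0.87, adjusted p = 0.0878) and with no filter on low values (adjusted p = 0.0694). In those labelled JunKO 1 was lower (Mmp12, -2.48, against 0.0935% of all genes) and 1 higher (Mmp9, 2.65, against 0.103%), with a median of -0.04. Mmp12 was not called there without Scramble replicate 2 (adjusted p = 0.0647). Mmp9 was called in 13 of 20 alternatives and in 1 of 4 fits that left out a library (adjusted p up to 0.139), and not with the replicate number as a block (limma-trend adjusted p = 0.0732). These groups share the Scramble libraries. The JNK pathway (13 tested) and the turnover genes (9 tested) gave 0 calls by limma-trend in all 3 knockout groups, and the other immediate-early genes (11 tested) gave 1, Zfp36 in those labelled JunDKO (1.15, called in 14 of 20 alternatives). The cytokine and protease targets in this list are not regulated by AP-1 alone.

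Between TGEMs and iBMDMs the same lists showed mixed directions, where 7.89% of all genes were called higher and 13.2% lower. Of 10 tested partners Atf3 was called higher in TGEMs (259 against 79.1 ± 2.36 RPKM, log2 fold change 1.62). Of 14 genes of the JNK pathway Dusp1 was higher (2.98), and of 9 turnover genes Cops5, a subunit of the COP9 signalosome that binds JUN, was lower (-1.38). Of 18 tested targets 3 were higher (Mmp12, Plau and Plaur) and 5 lower (Ccnd1, Spp1, Cdkn1a, Ccl2 and Hmox1), and of 14 immediate-early genes 3 were higher (Egr2, Zfp36 and Srf) and 1 lower (Myc). Srf was called in 7 of 14 alternatives (adjusted p up to 0.462), Myc in 10 (up to 0.185), Cops5 in 12, Dusp1 in 12 (up to 0.0789, and not without the C57Bl/6EiJ vehicle library) and Plaur in 13 (up to 0.165). Myc is among the genes introduced by the retrovirus, and reads of the endogenous and introduced gene cannot be told apart here. Between strains Vegfa was the only call in these lists (-2.04, lower in Balb/cJ, as were 0.772% of all genes), a call kept in 10 of 15 alternatives and in 1 of 5 fits that left out a library (adjusted p up to 0.159), and the difference between strains in the change with KLA gave 0 calls by limma-trend.

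The 5 genes outside the family whose levels followed those of each member most closely over the 13 libraries were different for the 3 members. Between the members themselves Pearson's r was 0.92 for Jun and Jund, 0.72 for Jun and Junb and 0.71 for Junb and Jund. Among 3962 other genes with a mean of at least 16 RPKM, ranked by Pearson's r of log2(RPKM + 1), those nearest to Jun were Rhob, a small GTPase (r = 0.96), Gadd45a, a stress gene (0.95), Ctsz (0.95), Vat1 (0.94) and Ctsd (0.94). Nearest to Junb were Nfkb2 (0.97), Nfkbia (0.96), Btg1 (0.96), Btg2 (0.96) and Bcl2l11 (0.95). Nearest to Jund were H2-D1, a class I histocompatibility gene (0.98), St6galnac4 (0.97), Crlf2 (0.97), Tcirg1 (0.97) and Cebpb (0.97). These values describe the libraries and carry no test, since the 13 libraries share the split into iBMDMs and TGEMs and the high KLA libraries. Ranked by Spearman's rho instead, 1, 2 and 1 of the 5 genes were the same for Jun, Junb and Jund.

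The calls of the family were compared over the alternatives. The call of Jun in TGEMs against iBMDMs and that of Jund held in 14 of 14, that of Jund in the libraries labelled Atf3KO in 17 of 18 and that of Junb with KLA in 14 of 17.

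**Figure D5:**
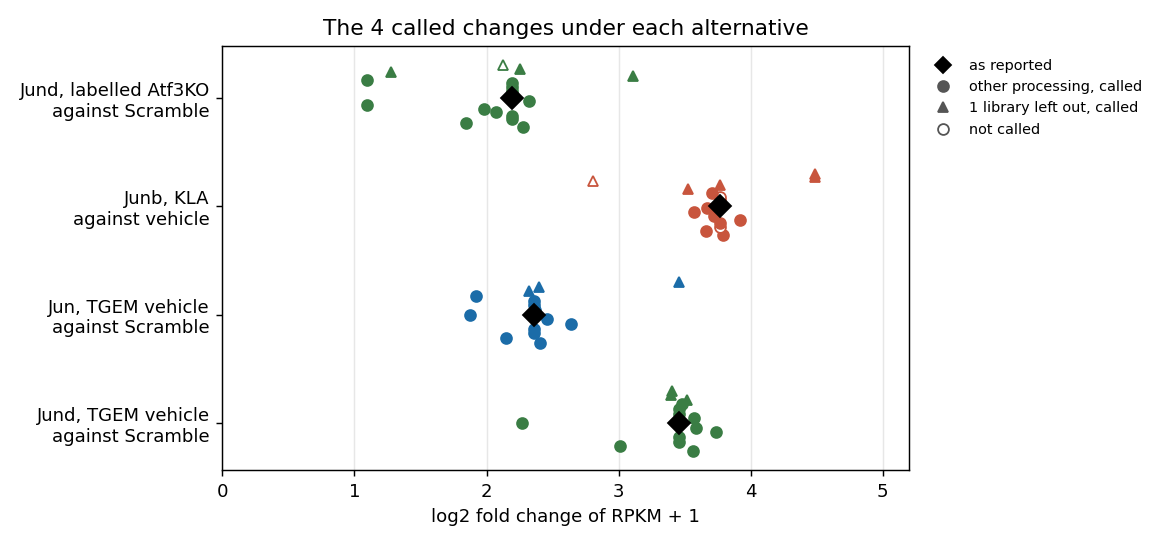
log2 fold change of RPKM + 1 for the 4 called changes of JUN family genes as reported (black diamonds) and under each alternative (circles, or triangles where 1 library was left out); open symbols were not called. Jund in the libraries labelled Atf3KO ranges from 1.10 to 3.11 and Junb with KLA from 2.81 to 4.49.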

How the data were processed

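Levels were measured by polyA RNA-seq in 13 libraries of mouse macrophages. The authors aligned reads with STAR to mm10 (Balb/cJ reads to a strain genome whose positions were shifted to mm10) and counted exons with HOMER, and the deposited values are RPKM per gene model; versions and the strand setting are not given in the sources used here. Low values matched whole reads within 0.05 read in 100% of values up to 50 reads, so depth (1553296 to 18444441 reads) was recovered, and intervals on reads cover counting error only. The study's own edgeR results were not used, and 0 per-sample columns were left out.

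Samples were grouped by their labels. limma 3.58.1 (R 4.3.3) was run on log2(RPKM + 1), with its mean-variance trend, over genes with a mean of at least 1 RPKM, and p-values were adjusted by Benjamini-Hochberg over all tested genes. Fold changes are on this scale, which understates the change of low genes. The 8 iBMDM libraries shared a fit (4 residual degrees of freedom), as did the 5 TGEM libraries with strain and treatment (2) and all 13 libraries for cell source (6). Genes named by rule are the 3 members, the called members of 5 gene lists, and the 5 genes most like each member; Fosl2 is named outside the rule, and marker and sex-linked genes as checks. The members were matched by symbol, and the family and the lists were chosen for description with earlier results of these data known. Ratios were tested by exact permutation in scipy 1.17.1. On simulated data 192 of 200 changed genes were called for Atf3KO, 196 for KLA, 198 for strain and 106 for the difference between strains in the change with KLA. Alternatives were other pseudocounts, filters, scalings, GC correction, limma-voom on the recovered reads, other covariates and leaving out each library.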

Additional observations from a re-analysis of the deposited data

Results flagged for a closer look

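As deposited, Jun was higher with KLA in C57Bl/6EiJ and lower in Balb/cJ. Jun measured 71.1 RPKM with vehicle and 171 with KLA in C57Bl/6EiJ, and 100.0 with vehicle and 76.9 and 87.4 with KLA in Balb/cJ. Its log2 difference in C57Bl/6EiJ was 1.26, where the median gene was at -0.18. In Balb/cJ it was -0.37 (median gene -0.013, Jun at the 26.0th percentile) and -0.19 (median gene -0.20, Jun at the 50.4th percentile), so the second did not stand apart from all genes. The difference of the changes (Balb/cJ minus C57Bl/6EiJ) was -1.54 ± 0.54 on the log2 scale (SE, unadjusted p = 0.0372 and adjusted p = 0.603 by limma-trend), so it did not pass the adjustment over all genes. It rests on 1 library per strain and treatment except for Balb/cJ with KLA. No title date held both strains, so strain and title date cannot be told apart.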

How the results depend on the processing

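Leaving out 1 library at a time gave log2 fold changes in Atf3KO of -0.0092 to 1.31 for Jun, 0.20 to 1.65 for Junb and 1.28 to 3.11 for Jund. With KLA they were -0.28 to 1.26 for Jun and 2.81 to 4.49 for Junb, and between strains -1.05 to 0.49 for Jun and -1.34 to 0.34 for Junb. Junb spanned -0.36 to 0.12 in JunKO, -0.61 to -0.12 in JunDKO and -0.81 to 0.63 for cell source. In JunKO Jun spanned 0.18 to 0.51 and Jund 0.14 to 0.37, and with KLA Jund spanned 0.070 to 0.18. The log2 ratios spanned -0.018 to 0.55 (Junb to Jun, Atf3KO), -0.24 to 0.33 (Junb to Jun, JunDKO), -0.12 to 0.23 (Junb to Jund, JunDKO), -0.12 to 0.10 (Jund to Jun, JunDKO), -0.19 to 0.031 (Jund to Jun, JunKO), -0.90 to 0.31 (Jund to Jun, KLA) and 2.49 to 4.35 (Junb to Jun, KLA). Numbers of genes called spanned 844 to 1770 in Atf3KO, 5 to 11 in JunKO, 264 to 368 in JunDKO, 15 to 108 with KLA and 17 to 235 between strains.

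GC correction turned Junb to -0.15 in Atf3KO (also with the replicate block), -0.78 for cell source and 0.19 between strains, Jund with KLA to -0.068, and the ratio of Junb to Jun to -0.27 in Atf3KO and -0.022 in JunDKO. The difference between strains in the change of Jund turned to -0.17 with GC correction, -0.038 with equal medians, -0.030 with limma-voom and -0.015 with quantile normalization. Junb with KLA stayed at 3.77 but lost its call with no filter on low values and with title date in place of strain. The cause was not tested.

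Genes called in Atf3KO numbered 1339, and 806 with GC correction, 264 with a log2 fold change of at least 2 and 3068 with no RPKM minimum. In JunDKO they numbered 531, and 151 and 938 under the last 2 settings. In JunKO they numbered 21, and 58 with GC correction, 8 with a log2 fold change of at least 2, 9 with no filter, 9 with a pseudocount of 0.25 and 8 with only the libraries of the 2 groups. With KLA they numbered 117, and 186 by limma-voom, 180 with a mean of at least 5 RPKM, 71 with no covariate, 52 with no filter and 65 with title date. Between strains they numbered 120, and 306 by limma-voom, 68 with a log2 fold change of at least 2, 255 with a mean of at least 5 RPKM, 239 with no RPKM minimum and 36 with no filter. The difference between strains in the change with KLA gave 0 called, and 25 with GC correction and 54 with a mean of at least 5 RPKM. Cell source gave 2301, and 851 and 4113 with a log2 fold change of at least 2 and with no RPKM minimum.

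The labels do not say that replicate numbers in the iBMDM titles pair libraries. Differences between replicates correlated across genes by 0.185 to 0.225 among Scramble, JunKO and JunDKO, and by -0.215 to -0.120 between these and Atf3KO, whose replicate 2 has another title date. With the replicate block 1320, 8 and 506 genes were called in Atf3KO, JunKO and JunDKO, and no call of a JUN family gene changed (Jund in Atf3KO 2.19, limma-trend adjusted p = 0.0158). Chosen after seeing the data, the crossed replicate block with the Atf3KO numbers exchanged called 1391, 42 and 563 genes, GC correction with the replicate block 809, 66 and 563, and the fit without the Atf3KO libraries 16 in JunKO and 546 in JunDKO. With the replicate block in that last fit 63 and 576 genes were called, and again no JUN family gene. TGEM titles share dates rather than replicate numbers, and the fit with title date is given above.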
